A study of Mus musculus with 12 samples.

Results

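C2C12 cells, a mouse myoblast line that differentiates into myotubes when serum is lowered, were differentiated for 48 h (day 2) with 10 µM of the LSD1 inhibitor S2101 or with its vehicle. Both treatments share the growth medium and the switch to horse serum, and no genetic change is named in the labels. The regions described here carry a peak of monomethylated histone H3 lysine 4 (H3K4me1) in the S2101 library, no H3K4me1 peak in the vehicle library, and no peak of di- or trimethylated H3K4 (H3K4me2, H3K4me3) under either treatment. They were found by pooling the authors' 6 peak lists, joining peaks that overlap by at least 1 bp, and reading the presence of each mark from the lists, so they were chosen by presence and absence in the very lists compared. Of 51372 joined regions, 4822 met this rule, or 9.39%. Each mark and treatment is represented by 1 library of a single cell line. No difference between S2101 and vehicle therefore has a replicate check, no test was made, and every value below is a description.

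H3K4me1 is laid down mainly by the methyltransferases Kmt2c and Kmt2d and marks enhancers and the flanks of promoters, whereas H3K4me3 marks the starts of active genes and H3K4me2 is found at both. A place with H3K4me1 and no H3K4me3 is usually read as a distal element that is primed or active as an enhancer. LSD1 (Kdm1a) takes methyl groups off mono- and dimethylated H3K4, with a flavin as cofactor, and its inhibitor S2101 is a derivative of tranylcypromine. In myoblasts such distal elements are typical binding places of Myod1, the transcription factor that sets the muscle programme, and of its partners of the Mef2 family. A list of peaks shows where signal passed the caller's threshold, so absence from a list does not show absence of the mark.

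Regions with S2101 H3K4me1 only were a small class beside their counterparts. H3K4me1-only regions listed in both treatments numbered 8174, and those listed with vehicle only numbered 18882. Of all 41557 joined regions with H3K4me1 in some treatment, whatever the other marks, 12.7% had it with S2101 and not with vehicle, and 58.1% had it with vehicle and not with S2101. The rule itself used these counts, and nothing about the mark per cell is read from them. Among the H3K4me1-only regions of the S2101 list, 37.1% (95% Wilson interval 36.3 to 37.9%) had no vehicle peak, while among those of the vehicle list 69.8% (69.2 to 70.3%) had no S2101 peak. The S2101-only regions were 0.255 times as many as the vehicle-only ones. That ratio moved with the length of the lists: with the vehicle H3K4me1 list kept to as many top-scoring peaks as the S2101 list holds, 7108 regions were S2101-only and 6893 vehicle-only, a ratio of 1.03.

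The S2101-only regions were short and stood near the lower end of the caller's score. Each consisted of exactly 1 S2101 H3K4me1 peak, and together they covered 1.68 Mb, which is 18.03% of the length of the S2101 H3K4me1 list. Their median width was 314 bp (quartiles 271 and 391 bp), from 171 bp to 1276 bp. For comparison, S2101 peaks in the regions of both treatments had a median width of 415 bp (314 and 549 bp). Over the whole S2101 H3K4me1 list it was 384 bp. Vehicle peaks were wider in general, with a median of 535 bp over their whole list. Among them, those of vehicle-only regions had a median of 473 bp (373 and 613 bp) and those of both-treatment regions 703 bp. The score, as the authors deposited it, ranks peaks within a list only, and begins at 100 in the S2101 H3K4me1 list. S2101-only regions scored 119 at the median (quartiles 107 and 146) and a highest score of 549.26. S2101 peaks in the regions of both treatments had a median of 153 (117.7 and 216). A score under 110 was found for 33.5% of S2101-only regions (32.1 to 34.8%), against 16.5% of S2101 peaks of both treatments (15.7 to 17.2%). Scores of 200 or more belonged to 383 S2101-only regions, or 7.94%, against 30.1% of the S2101 peaks of both treatments. The vehicle list showed the same order. Its peaks scored 152 at the median in vehicle-only regions and 263 in regions of both treatments, and 14.6% and 4.21% of them scored under 110. Low scores and small widths were thus not particular to the S2101-only regions.

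**Figure D1:**
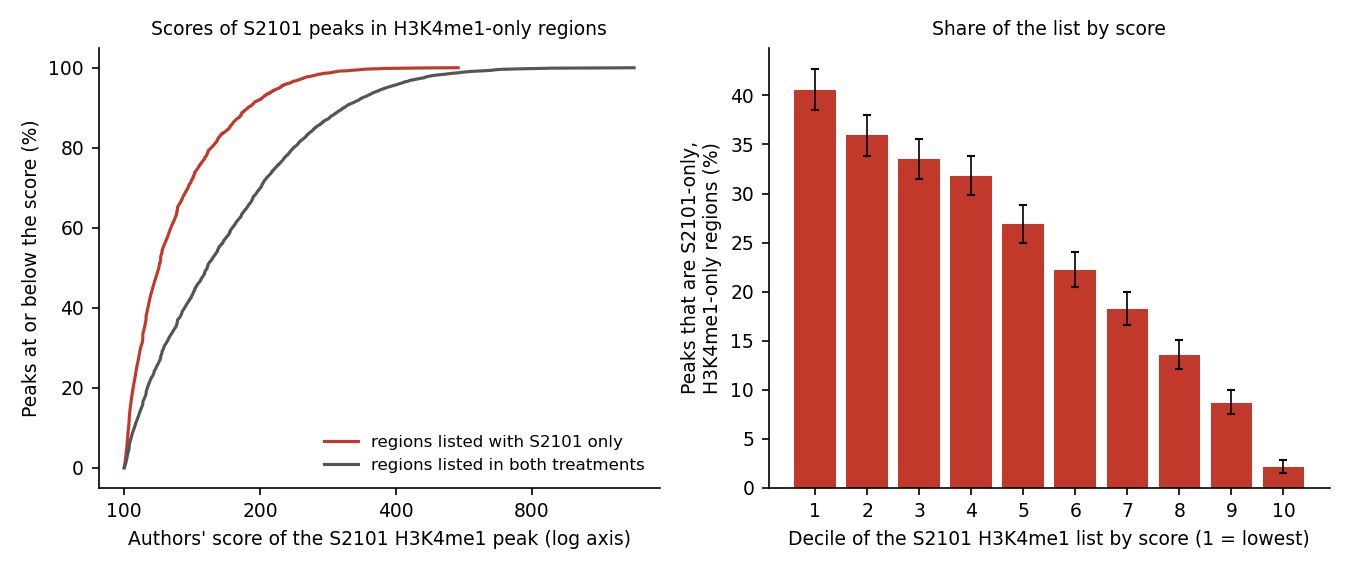
Left: share of S2101 H3K4me1 peaks (y, %) at or below a score (x, log axis) in H3K4me1-only regions listed with S2101 only (4822 peaks, red) and in both treatments (9336 peaks, grey). Right: share of each decile of the S2101 H3K4me1 list by score that is an S2101-only, H3K4me1-only region, with 95% Wilson intervals. It is 40.6% in the lowest decile and 2.08% in the highest, a decline that the rule partly sets.

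Cut into 10 deciles of equal size by score, the S2101 H3K4me1 list held fewer such regions at each step upward. In the lowest decile of the list, with scores of 100 to 103.8, 839 of 2067 peaks (40.6%) were S2101-only, H3K4me1-only regions. In the middle of the list, from 127.67 up to a score of 141.83, it was 555 of 2066 peaks (26.9%). In the highest decile, from 297.09 upward, it was 43 of 2067 (2.08%, 1.55 to 2.79%). Peaks of similar score differed little in width: the median of S2101-only regions was below that of both-treatment peaks in all 10 deciles, with 266 bp against 269 bp in the lowest decile and 766 bp against 845 bp in the highest. Peaks joined with other marks, which the rule leaves out, numbered 495 in the lowest decile and 991 in the highest. Wider peaks also overlap other lists more easily. The rule thus partly sets the decline with score, and nothing is read from it.

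Most S2101-only regions lay close to H3K4me1 of vehicle cells. The median gap from the edge of a region to the nearest vehicle H3K4me1 peak was 1247 bp (quartiles 292 and 8196 bp). It rested on the rule and the vehicle list: the median was 2841 bp with a score of 200 or more required in all lists, 5606 bp with it required of vehicle H3K4me1 alone, 8020 bp with peaks up to 1 kb apart joined, and 4196 bp with H3K4me1 lists of equal length. Joining at 1 kb leaves no gap of 1 kb or less by construction. With the lists as deposited, a vehicle peak lay within 1 kb of 46.7% of the regions (45.3 to 48.1%) and within 10 kb of 77.8% (76.6 to 79.0%; range over the 19 autosomes 66.9 to 85.8%). By distance, 864 regions had a vehicle peak at 200 bp or less, 1389 farther off but within 1 kb, 1499 at 1 to 10 kb, 919 at 10 to 100 kb and 151 farther away. For the regions of both treatments, counting only vehicle peaks outside the region, the shares within 1 kb and 10 kb were 65.8% and 89.3%. For vehicle-only regions, counting the other vehicle peaks, they were 49.6% and 78.3%, close to those of the S2101-only regions. The rule used the same vehicle list, absent from the S2101-only regions and present in those of both treatments, so nothing is read from the difference between these classes. The intervals cover counting error only, and neighbouring regions are not independent.

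**Figure D2:**
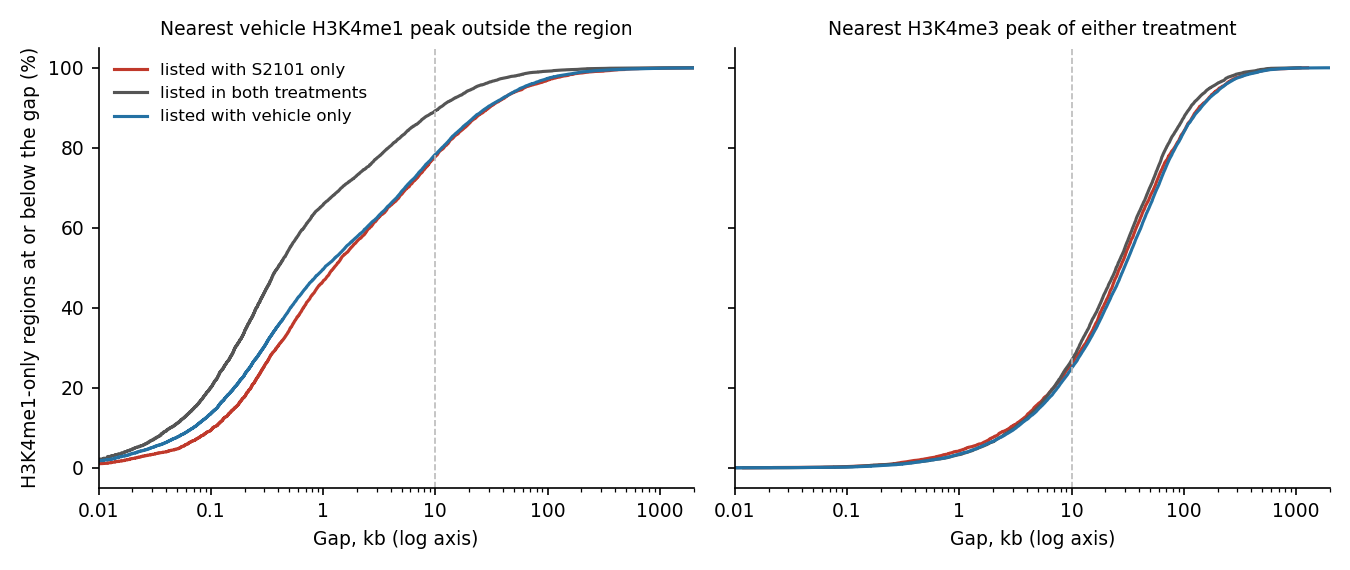
Share of H3K4me1-only regions (y, %) at or below a gap in kb (x, log axis; dashed line at 10 kb) for regions listed with S2101 only (4822, red), in both treatments (8174, grey) and with vehicle only (18882, blue). Left, gap to the nearest vehicle H3K4me1 peak outside the region, where the red and blue curves meet near 10 kb and the grey one lies above both; right, gap to the nearest H3K4me3 peak of either treatment, where the 3 curves nearly coincide.

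The vehicle peaks next to S2101-only regions lay mostly in H3K4me1-only regions themselves. Among the 2253 S2101-only regions with a vehicle H3K4me1 peak within 1 kb, that peak belonged to a vehicle-only, H3K4me1-only region for 1213 (53.8%, 51.8 to 55.9%) and to a region of both treatments without other marks for 696 (30.9%, 29.0 to 32.8%). It lay in a region with H3K4me2 and no H3K4me3 for 248 (11.01%), and in one with H3K4me3 for 96 (4.26%). Over all 40432 vehicle H3K4me1 peaks these shares were 46.7%, 21.3%, 12.99% and 18.96%. The rule left out S2101 peaks joined with H3K4me2 or H3K4me3, so it partly sets these contrasts and nothing is read from them. The vehicle peaks within 1 kb, 2150 distinct ones, scored 188 at the median and were 544 bp wide, against 182 and 535 bp over the whole vehicle list. Vehicle peaks lay within 1 kb on both sides of 351 S2101-only regions (7.28%, 6.58 to 8.05%) and on 1 side of 1901 (39.4%). At 5 kb these shares were 23.5% and 44.8%.

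Other S2101 H3K4me1 peaks were farther away than vehicle ones, in a list with fewer peaks. The median gap to the nearest other S2101 H3K4me1 peak was 4578 bp, and 60.9% of the S2101-only regions had such a peak within 10 kb (59.6 to 62.3%). For regions of both treatments the median gap was 1631 bp and the share 74.99%. Over all joined regions, the nearest neighbour of an S2101-only region was a vehicle-only, H3K4me1-only region in 1909 cases (39.6%), a region of both treatments in 952 (19.7%) and another S2101-only region in 722 (14.97%, 13.99 to 16.01%). By comparison, these classes make up 36.8%, 15.9% and 9.39% of all joined regions, in the same order. S2101-only regions were the nearest neighbour of 10.5% of both-treatment regions and of 10.2% of vehicle-only regions. The other classes also neighbored their own class more often than its share of all joined regions. This was so for 29.0% of both-treatment regions and 46.1% of vehicle-only regions.

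H3K4me3, the promoter mark, was mostly distant. The median gap to an H3K4me3 peak of either treatment was 26979 bp for S2101-only regions, 24972 bp for regions of both treatments and 29438 bp for vehicle-only regions. An H3K4me3 peak lay within 10 kb of 25.9% of S2101-only regions (24.6 to 27.1%), of 26.9% of regions of both treatments (25.9 to 27.8%) and of 24.9% of vehicle-only regions (24.3 to 25.5%), differences smaller than the range over autosomes among the S2101-only regions, 15.3 to 33.1%. Within 1 kb the share was 4.23% (3.70 to 4.84%) for S2101-only regions, 3.29% (2.93 to 3.70%) for both treatments and 3.46% (3.21 to 3.73%) for vehicle only. H3K4me3 was profiled in experiment 2 and H3K4me1 in experiment 1, so mark and experiment cannot be told apart in these gaps. H3K4me2 of the same experiment lay within 10 kb of 43.4% of S2101-only regions (42.0 to 44.8%), of 48.7% of both-treatment regions (47.6 to 49.8%) and of 41.5% of vehicle-only regions (40.8 to 42.2%). Taken by treatment, an S2101 H3K4me2 peak was within 1 kb of 262 S2101-only regions (5.43%) and a vehicle H3K4me2 peak within 1 kb of 564 (11.7%). The other classes showed the same order, with 5.25% and 12.9% for regions of both treatments and 4.19% and 10.3% for vehicle-only regions. The whole H3K4me2 lists held 24444 S2101 and 21447 vehicle peaks.

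Score and surroundings varied together to a small extent. In the lowest decile of the S2101-only regions by score, 77.0% (73.1 to 80.5%) had a vehicle H3K4me1 peak within 10 kb and 43.9% within 1 kb; in the highest decile, with scores of 188.1 and more, 86.1% (82.8 to 88.9%) and 57.1% had one. The shares of the deciles between ran from 72.8 to 81.1% at 10 kb with no steady step. S2101 peaks in regions of both treatments went the same way, so this was not particular to the S2101-only regions. In the lowest decile of the whole S2101 list, 86.5% of them had a vehicle H3K4me1 peak outside their region within 10 kb and 61.5% within 1 kb. In the highest decile it was 96.2% and 78.6%. Regions with a vehicle peak at 200 bp or less scored 123 at the median and were 328 bp wide, and those with none within 100 kb had 113 and 297 bp. H3K4me3 lay within 10 kb of 24.4% of the lowest decile and of 29.2% of the highest, with 23.4 to 27.4% between, and the courses were not compared by a test.

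**Figure D3:**
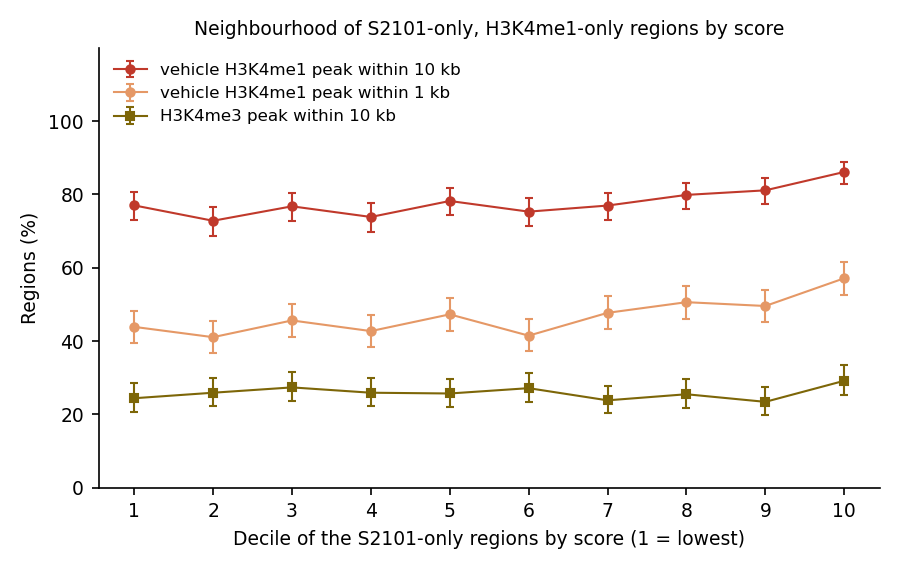
S2101-only, H3K4me1-only regions in deciles by score (x, 482 or 483 regions each) against the share (y, %) with a vehicle H3K4me1 peak within 10 kb (red), within 1 kb (orange) or an H3K4me3 peak of either treatment within 10 kb (olive); bars are 95% Wilson intervals. The red and orange shares are highest in the top decile, at 86.1% and 57.1%.

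The highest-scoring regions stood mainly beside H3K4me1 listed with vehicle. Of the 10 with the highest scores, 7 had a vehicle H3K4me1 peak within 1 kb and 9 within 10 kb, 2 had H3K4me3 within 10 kb, and their scores ranked between 313 and 1109 among the 20664 S2101 H3K4me1 peaks. Positions are of build mm9, counted from 1, and no annotation of that build was used, so genes, exons and introns are not given.

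The highest score, 549.26, was that of a region on chromosome 2 at 167098402 to 167099677, which at 1276 bp was also the widest. It lay 3985 bp from the nearest vehicle H3K4me1 peak (167093614 to 167094416, score 474.32) and 31995 bp from H3K4me3. Within 50 kb of it there were 18 other S2101 and 18 vehicle H3K4me1 peaks, so it stood in a stretch listed in both treatments. The second, on chromosome 3 at 103461025 to 103461996 (score 505.31), had an S2101 peak 18 bp away, which is itself listed in both treatments, and a vehicle peak 127 bp away with a score of 163.12. Its surroundings held fewer peaks than those of the first, with 3 other S2101 and 6 vehicle H3K4me1 peaks within 50 kb. The third, on chromosome 12 at 88175772 to 88176827 (score 465.95), lay 141 bp from a vehicle-only peak of 541 bp and 348 bp from vehicle H3K4me2. It was part of a dense stretch of 23 other S2101 and 29 vehicle H3K4me1 peaks within 50 kb.

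Farther down, a region on chromosome 13 at 51411566 to 51412530 (score 450.84) lay 146 bp from a vehicle H3K4me1 peak whose region also held H3K4me2. One on chromosome 11 at 109482889 to 109483823 (score 427.69) was 174 bp from a vehicle-only peak of 772 bp and 9111 bp from H3K4me3. On chromosome 5, the region at 36708324 to 36709001 (score 414.19) was separated from a vehicle peak by 11 bp and from another S2101 peak by 2 bp, among 26 other S2101 and 33 vehicle H3K4me1 peaks within 50 kb. These 3 were thus neighbours of vehicle H3K4me1 at less than 200 bp. Those on chromosome 4 at 150066558 to 150067263 (score 403.52), chromosome 19 at 32144291 to 32145206 (score 399.33) and chromosome 3 at 97737785 to 97738550 (score 372.13) had gaps to vehicle H3K4me1 of 1415, 500 and 672 bp. The exception beyond 10 kb was on chromosome 4 at 137409066 to 137409738 (score 377.8, 673 bp), where the nearest vehicle H3K4me1 peak was 13104 bp away and H3K4me3 7563 bp away.

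**Figure D4:**
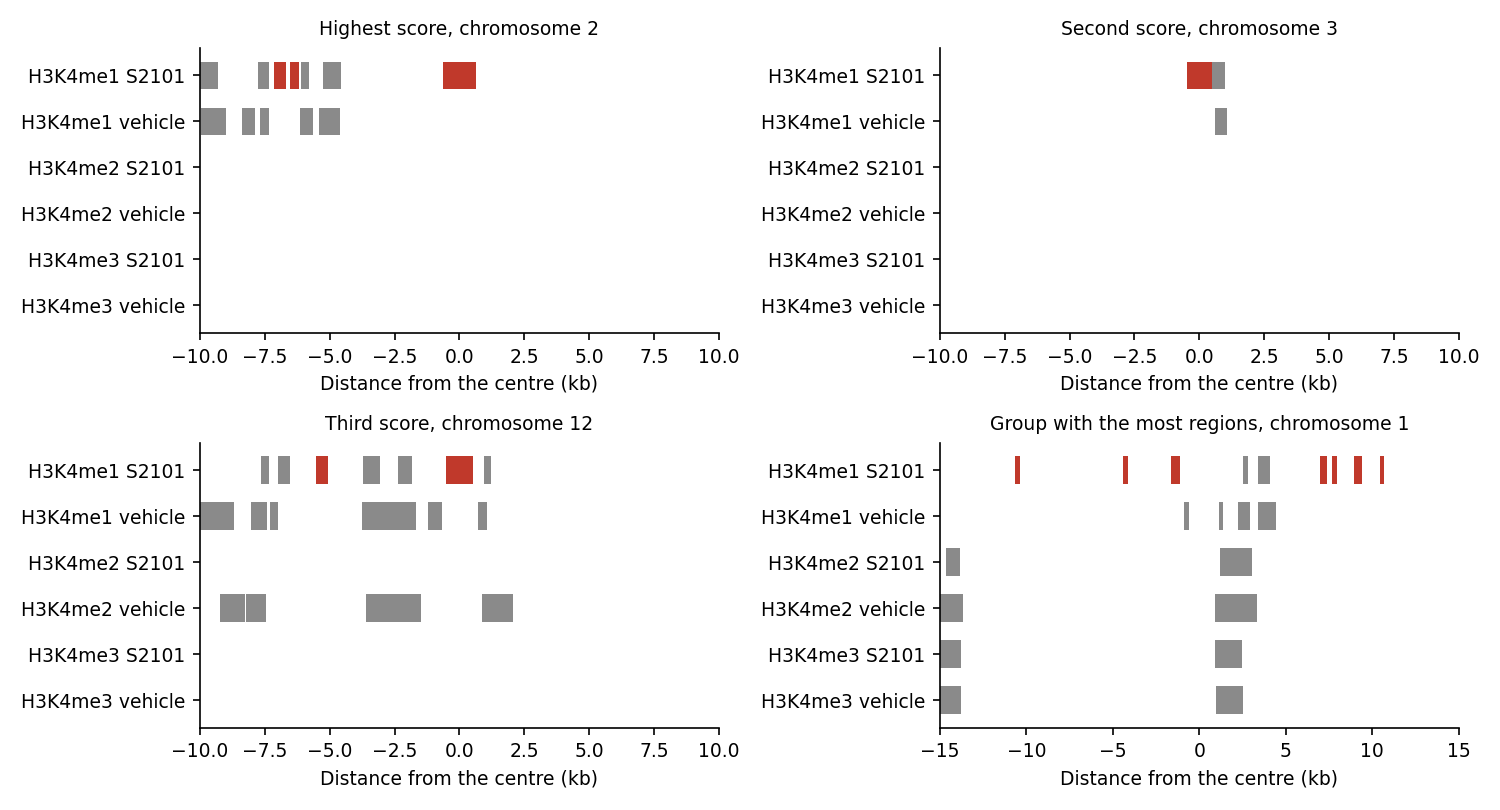
Peaks of the 6 lists (rows, S2101 above vehicle for each mark) around the 3 highest-scoring regions and the group of 7 regions on chromosome 1, by distance in kb from the centre (x). Red bars are S2101-only, H3K4me1-only regions and grey bars all other peaks; on chromosomes 2, 12 and 1 vehicle H3K4me1 peaks stand among or beside the red bars, and on chromosome 3 a vehicle peak lies 127 bp away.

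Width and score picked partly the same regions: 4 of the 10 widest were among the 10 with the highest scores. All 10 widest had a vehicle H3K4me1 peak within 10 kb. The second by width was on chromosome 15 at 8755667 to 8756937 (1271 bp, score 328.68), 2942 bp from a vehicle peak and 94879 bp from H3K4me3. The third, on chromosome 11 at 3038201 to 3039343 (1143 bp, score 258.2), lay 45 bp from another S2101 peak and 1095 bp from a vehicle peak that is 8479 bp wide with a score of only 166.02. The others lay on chromosome 15 at 103191584 to 103192607 (1024 bp), on chromosome 8 at 83388803 to 83389814 (1012 bp), on chromosome 10 at 18203820 to 18204804 (985 bp) and on chromosome 5 at 152177957 to 152178897 (941 bp). Of these 4, the regions on chromosomes 15 and 10 were next to wide vehicle peaks with H3K4me2 (1823 and 1709 bp, scores 867.55 and 796.96), at 343 and 913 bp.

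Regions away from any vehicle H3K4me1 were fewer. No vehicle H3K4me1 peak lay within 10 kb of 1070 regions (22.2%, 21.0 to 23.4%). The 919 of these with a vehicle peak at 10 to 100 kb scored 117 at the median and up to 377.8, against 119 over all S2101-only regions, and the 151 beyond 100 kb scored 113 and up to 265.57. The 5 regions farthest from any vehicle peak of the 3 marks were on chromosome 7 at 101083949 to 101084199 (gap 853928 bp), chromosome 8 at 15730855 to 15731153 (647976 bp), chromosome 6 at 59996350 to 59996632 (619473 bp), chromosome 13 at 20275804 to 20276079 (557103 bp) and chromosome 3 at 18523403 to 18523791 (537741 bp). Their scores were 105.07, 103.6, 112.54, 111.42 and 119.35 and their widths between 251 and 389 bp. The last, on chromosome 3, stood at the median score of all S2101-only regions and, at 389 bp, near their upper quartile of width (391 bp). The other 4 scored below that median and were narrower than the median width of 314 bp. A selection made after the values were seen, of scores of 200 or more with no vehicle H3K4me1 within 10 kb, held 58 of the 383 regions with such scores (15.1%, 11.9 to 19.1%). Their median width was 531 bp, 17 had another S2101 H3K4me1 peak within 10 kb, and 11 had H3K4me3 within 10 kb. After the region on chromosome 4 named above, the highest scores among them were on chromosome 10 at 75290830 to 75291543 (364.42, 44324 bp from vehicle H3K4me1 and 7841 bp from H3K4me3) and on chromosome 17 at 29293137 to 29293959 (338.65, 10580 bp from vehicle H3K4me1 and 58936 bp from H3K4me3).

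Some S2101-only regions were grouped. Another one lay within 10 kb of 31.1% (29.8 to 32.4%), while 58.2% of the more numerous regions of both treatments and 63.9% of the vehicle-only regions had another of their own class that near. The share was 10.7% with a score of 200 or more in all lists, 43.4% with it required of vehicle H3K4me1 alone, 9.26% with peaks up to 1 kb apart joined and 41.0% with H3K4me1 lists of equal length. Joining at 1 kb turns regions that near to each other into 1, so it lowers the share partly by construction. Joined at 10 kb, the S2101-only regions formed 521 pairs, 111 groups of 3, 22 of 4, 5 of 5 and 1 each of 6 and 7, beside 3321 single regions. The largest group held 7 regions over 21372 bp on chromosome 1 (88388572 to 88409943), with scores of 100.72 to 223.85. In its span were 9 S2101 and 4 vehicle H3K4me1 peaks, as well as a place of H3K4me2 and H3K4me3 listed in both treatments. The next, of 6 regions on chromosome 14 (75300582 to 75320864), had scores of 101.31 to 210.62 and lay among 5 vehicle H3K4me1 peaks that covered 3334 bp, with no H3K4me2 or H3K4me3. A group of 5 on chromosome 4 (154940061 to 154946021, 5961 bp) had no vehicle peak of any mark in its span, and its scores ran from 107.35 to 181.27. On chromosome 10, a group of 5 over 6725 bp (82624695 to 82631419) had 1 vehicle H3K4me1 peak of 690 bp, and a group of 5 over 22867 bp (94979979 to 95002845) lay among 7 vehicle peaks.

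Regions just inside and just outside the rule were alike in score. In 5 regions the S2101 peak directly adjoined a vehicle H3K4me1 peak with no base shared or between, on chromosomes 3, 6, 8, 16 and 19, with S2101 scores of 179.71, 106.57, 163.48, 121.22 and 102.43. Among these, the region on chromosome 3 (95906389 to 95906867, 479 bp) stood beside a vehicle peak of 481 bp with a score of 183.41. On the other side of the rule, regions counted as listed in both treatments shared as little as 1 bp, on chromosome 13 (35258217 to 35258944, S2101 score 106.57), chromosome 16 (57418273 to 57419101, 137.04) and on chr1_random (280470 to 282434, 136.59). They were followed by 2 that shared 3 bp, on chromosome 4 (154562143 to 154563222, 169.23) and chromosome 7 (117951585 to 117952357, 102.02). Gaps of at most 50 bp were found for 233 S2101-only regions, with a median score of 120, and overlaps of at most 50 bp for 152 regions of both treatments, with a median S2101 score of 116. With peaks up to 1 kb apart joined into a region, 2170 regions met the rule, 26.7% of the H3K4me1-only regions of the S2101 list.

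Across autosomes the S2101-only regions followed the vehicle-only ones more evenly than those of both treatments. Between 130 (chromosome 19) and 379 (chromosome 2) lay on each autosome. The ratio to vehicle-only regions stayed between 0.228 (chromosome 19) and 0.295 (chromosome 16), with a mean of 0.257 ± 0.021 (SD over 19 autosomes, which are not replicates), while the ratio to regions of both treatments ran from 0.358 (chromosome 15) to 1.02 (chromosome 7). The share of S2101 H3K4me1-only regions without a vehicle peak ran from 26.4% on chromosome 15 (23.8 to 29.1%; 273 regions, beside 763 of both treatments) to 50.5% on chromosome 7 (46.4 to 54.7%; 283 beside 277). The median score of the whole S2101 H3K4me1 list was highest on chromosome 15, at 168, and lowest on chromosome 7, at 120. Among S2101 peaks of H3K4me1-only regions with scores under 150, the S2101-only share was 36.4% on chromosome 15 and 57.4% on chromosome 7. These were again the lowest and highest of the autosomes. The part of the score in the difference between these chromosomes was not tested. Chromosome X held 9 S2101-only regions, 8 of both treatments and 55 vehicle-only ones. The lists there held 21 S2101 and 77 vehicle H3K4me1 peaks in all. For H3K4me2 they held 229 S2101 and 487 vehicle peaks, and for H3K4me3 453 and 433. Over all chromosomes the S2101 H3K4me2 list was the longer one, with 24444 peaks against 21447, so chromosome X went the other way. For H3K4me3 the whole lists held 14324 and 13589 peaks.

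**Figure D5:**
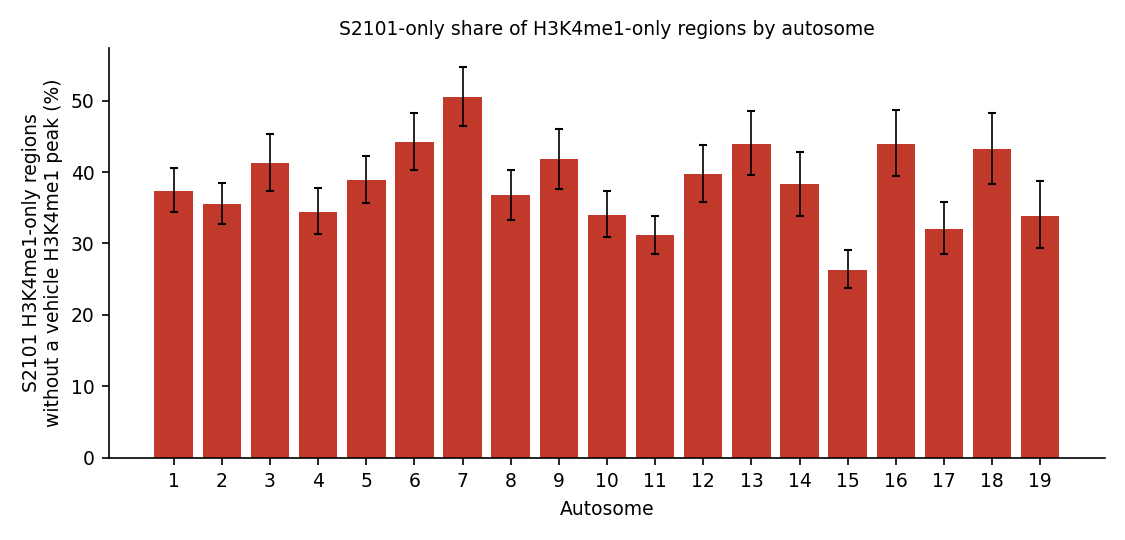
Share of S2101 H3K4me1-only regions that lack a vehicle H3K4me1 peak (y, %, from 0) for each autosome (x), with 95% Wilson intervals for counting error. Chromosome 15 is lowest at 26.4% and chromosome 7 highest at 50.5%.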

How the data were processed

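Chromatin was fragmented by sonication, pulled down with an antibody against 1 methylation state of H3K4 and sequenced, per the labels' protocols. The deposited files are lists of peaks with a score, called with MACS within Galaxy on single libraries, per the file headers. Bowtie2, deepTools and build mm9 are named in the submitters' processing notes. The sources used here do not say what the score measures, nor give the caller's settings, the controls or the read depth. Fewer reads or weaker enrichment can by themselves shorten a peak list and lower its widths and scores. The 4 inputs and 2 H3 samples were not analysed here.

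Positions were turned to 1-based coordinates, and peaks sharing at least 1 bp were joined with interval functions that matched bedtools 2.31.1 on simulated lists. Gaps run from edge to edge. Distances use every chromosome in the files. Shares carry 95% Wilson intervals. The regions, comparisons and lists were chosen with earlier results of these data known. Regions named are the 10 highest-scoring, the 10 widest, the 5 farthest from vehicle peaks, the 5 largest groups within 10 kb, and 5 on each side of the rule, besides 2 isolated regions picked after their values were seen. No genome of build mm9 was used, so no sequence or gene is given. Alternatives were score thresholds, list length, joining distance, single peaks, leaving out H3K4me3, and autosomes alone. The work was done in Python 3.11.15 with pandas 2.3.3, numpy 2.4.6, scipy 1.17.1 (intervals) and, for plots, matplotlib 3.10.9.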

Additional observations from a re-analysis of the deposited data

How the results depend on the processing

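No paired analysis was possible because each mark and treatment has 1 library, and no library could be left out. The number of S2101-only regions, 4822 as deposited, was 925 with a score of 200 or more required in all lists, 7646 with it required of vehicle H3K4me1 alone and 2170 with peaks up to 1 kb apart joined. Only 383 of the 4822 scored 200 or more, so most of the 925 entered because the cutoff removed vehicle H3K4me1 peaks or other marks. The share of S2101 H3K4me1-only regions without a vehicle peak was 25.4%, 58.2% and 26.7% under these 3 settings, 31.4% with each peak taken by itself and 54.2% with H3K4me1 lists of equal length. The share with a vehicle H3K4me1 peak within 10 kb was 66.7%, 58.6% and 56.0% under the first 3 settings and 62.5% with equal lengths. The share with H3K4me3 within 10 kb was 24.3% with a score of 200 or more in all lists and 20.5% with joining at 1 kb. Joining at 1 kb leaves no region with such a peak within 1 kb, so its shares are partly set by construction. The ratio to vehicle-only regions was 0.0914, 1.41 and 0.220 under the first 3 settings and 1.03 with equal lengths, where the cut itself makes the counts similar. Which of these classes is larger thus depends on the score threshold and length of the vehicle list. Leaving out H3K4me3 or keeping autosomes alone moved none of these results beyond counting error. Of the values for median width, score and gaps and for grouping under the alternatives, 19 stayed within counting error and 16 moved beyond it. Most that stayed came from settings that hardly change the regions and could move little. These were single peaks (4822 regions), leaving out H3K4me3 (4851) and autosomes alone (4812). Under the other settings most values moved. Read depth is unknown and limits all of them.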

Other observations

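A further 461 regions had H3K4me1 with S2101 and not with vehicle, together with another mark. H3K4me2 and H3K4me3 of both treatments were present in 312 of them, the marks typical of promoters, and H3K4me3 of some treatment in 352. H3K4me2 without H3K4me3 was found in 109, with vehicle alone in 62 and with S2101 alone in 22. Their 481 S2101 H3K4me1 peaks scored 117.7 at the median and were 313 bp wide, against 119 and 314 bp for the 4822 S2101-only regions without other marks.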
